A study of Mus musculus with 2 samples.

Results

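The 8 genes described here make, control or break down cholesterol: Hmgcs1, Fdps, Fdft1, Sqle and Dhcr7 encode enzymes of its synthesis, Srebf2 and Insig1 encode parts of the system that senses it, and Cyp46a1 encodes the enzyme that converts it for removal from the brain. They were taken by name, with the symbol matched in the transcript tables and the gene identifier in the gene tables, and all 8 were found among the 55536 genes listed. The RNA came from the hippocampus of female B6CASTF1/J mice aged 18 to 20 months, which are first-generation hybrids of C57BL/6J and CAST/EiJ, and no treatment is named. The study holds 1 group of 2 total RNA libraries, numbered as biological replicates 1 and 2, each made from 300 ng of RNA after ribosomal RNA was reduced and with ERCC spike-ins, which are synthetic RNAs added as a reference. The 2 libraries carry separate biosample labels but the same donor label, so it is not known whether 2 animals were sampled. The tissue term in the labels is a layer of the hippocampus, and no layer or field is named. There was no second group, so no test was possible, and every difference between the libraries is given as a value with its counting interval.

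Cholesterol does not cross from blood into brain in useful amounts, so brain cells make their own from acetyl-CoA through mevalonate, farnesyl diphosphate, squalene and a series of sterols. When sterols run low, the escort protein Scap carries the precursor of the transcription factor SREBP-2 out of the endoplasmic reticulum to be cleaved, and the Insig proteins hold that complex back when sterols are plentiful. The adult brain keeps most of its cholesterol in myelin, and neurons turn over part of theirs through Cyp46a1, whose hydroxylated product can leave the brain.

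The sequences that bear on this control are the stretches upstream of the genes. RefSeq promoter windows on GRCm38.p6, from 250 bases before a gene's start to 50 bases after it, matched Hmgcs1, Dhcr7, Srebf2, Insig1 and Cyp46a1, which is 5 of the 8 genes. Fdft1, Fdps and Sqle had no window. The 250 bases before the start of Hmgcs1, an enzyme gene known as a target of SREBP-2, and of Cyp46a1, the turnover gene, are shown to set a synthesis promoter beside a turnover promoter. Both run on the plus strand, Hmgcs1 at chr13:119690101-119690350 and Cyp46a1 at chr12:108334066-108334315. Capitals mark matches to the sterol regulatory element TCACNCCAC, the CCAAT box CCAAT and the GC box GGGCGG, each searched on both strands, so that boxes on the other strand read ATTGG and CCGCCC.
Hmgcs1: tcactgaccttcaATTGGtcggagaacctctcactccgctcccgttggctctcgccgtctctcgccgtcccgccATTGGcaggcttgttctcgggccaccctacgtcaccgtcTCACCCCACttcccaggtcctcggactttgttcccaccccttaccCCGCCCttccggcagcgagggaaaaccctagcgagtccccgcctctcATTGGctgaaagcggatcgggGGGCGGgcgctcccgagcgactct
Cyp46a1: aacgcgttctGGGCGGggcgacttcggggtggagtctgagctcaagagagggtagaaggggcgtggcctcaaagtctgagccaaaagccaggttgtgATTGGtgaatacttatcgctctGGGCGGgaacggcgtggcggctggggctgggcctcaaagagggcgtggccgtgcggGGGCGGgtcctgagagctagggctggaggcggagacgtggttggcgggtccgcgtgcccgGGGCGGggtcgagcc
The Hmgcs1 stretch held 1 sterol element, reading TCACCCCAC and beginning 137 bases before the start, with 3 CCAAT boxes and 2 GC boxes. The Cyp46a1 stretch held no match to the sterol element, 1 CCAAT box and 4 GC boxes. Their GC content was 64.8% and 67.6%. No match of one motif overlapped a match of another in the capitals shown.

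Over whole windows, Hmgcs1 was the 1 gene of the 5 with a match to TCACNCCAC, which was present in 1.24% of all 32851 windows. Its exact form TCACCCCAC was present in 0.551% of windows. The other 4 genes had no match, which says only that these letters are not in the windows searched. The 5 genes have 7 windows, since a gene can have several starts. A CCAAT box was in 5 of the 7 and a GC box in 6, beside 37.4% and 35.7% of all windows, and each of the 5 genes had both in at least 1 window. Among the 36 genes of the wider cholesterol lists with a window, 26 held a CCAAT box and 29 a GC box, and Hmgcs1 alone held the sterol element. Counts of genes take a match in any window of a gene, so they cannot be set against the shares of windows. A match is a description of letters, and no binding was measured.

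Srebf2 also carries a microRNA gene within it. Mir33 lies in intron 16 of the 18 introns of Srebf2, at chr15:82198122-82198190 on the plus strand. Its mature product from the 5′ arm, at chr15:82198127-82198147, is shown because miR-33 is known to act on genes of cholesterol export. The capitals mark its seed, bases 2 to 8.
mmu-miR-33-5p: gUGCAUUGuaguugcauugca
The reverse complement of the seed, CAATGCA, was looked for in the 3′ UTR of the leading transcript of each detected protein-coding gene. None of the 8 genes held it. Of 12338 detected genes with a 3′ UTR, 858 held it, or 6.95%, and of 48 genes of the cholesterol lists 5 did, or 10.4%. The 2 shares are not matched for length. The median 3′ UTR was 1453 bases in the 48 genes and 1004 bases in the 12338, and a longer one has more places for a match. Among the 5 genes were Abca1 with 3 sites and Abcg1 with 2, both cholesterol exporters, and Lrp8 and Nsdhl with 1 each, named after the search was made. The first site in Abca1 and the site in Nsdhl are shown with their flanks, in GENCODE M21 sequence, with the match of that site in capitals. The sites in Abca1 begin at bases 135, 140 and 150 of its 3′ UTR. The second therefore overlaps the first and is left in lower case in the stretch shown.
Abca1: ctgacactattCAATGCAatgcacttcaa
Nsdhl: cagtgatggtgCAATGCAatggtacagtg
The mature microRNA was not measured in these libraries. The Mir33 gene row held 0 counts in both, but its effective length was 0, so that 0 gives no level.

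All 8 genes were detected, at 1 TPM or more in each library, and their levels spanned 5.45-fold. TPM is an abundance per length, scaled so that each library sums to 1000000, and it allows genes to be compared. Unless the kallisto layout is named, levels are TPM of the RSEM-layout gene table, given for replicate 1 and then replicate 2, with the mean ± SD (n = 2). The gene-assigned counts behind them were 35358099 and 36307276. The 8 genes together held 23881 and 25186 counts, or 0.0675% and 0.0694% of each library, and summed to 341 and 335 TPM.

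Hmgcs1 (ENSMUSG00000093930.2, mm10 chromosome 13, 119690379 to 119708260, plus strand), the cytosolic HMG-CoA synthase of the mevalonate pathway, was the highest of the 8. It stood at 77.5 and 76.2 TPM (76.8 ± 0.905), from 6210 and 6614 counts. Of the 12733 detected protein-coding genes, 91.1% ranked below it. Fdps (ENSMUSG00000059743.12, chromosome 3, 89093588 to 89101959, minus strand), which builds farnesyl diphosphate, the branch point to sterols and to protein prenylation, was at 33.8 and 33.5 TPM (33.6 ± 0.219) from 980 and 1040 counts. Hmgcs1 therefore lay above Fdps in both libraries, although both act before the sterol branch.

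Fdft1 (ENSMUSG00000021273.10, chromosome 14, 63145150 to 63179578, minus strand) encodes squalene synthase, the committed step towards sterols. It was at 28.0 and 27.8 TPM (27.9 ± 0.134) from 1786 and 1858 counts. Sqle (ENSMUSG00000022351.14, chromosome 15, 59315077 to 59331192, plus strand) encodes squalene monooxygenase, which oxidises squalene before the ring system closes, and was at 20.2 and 19.6 TPM (19.9 ± 0.438). Its counts were 1379 and 1433. The pair was ordered alike in both libraries, with Fdft1 1.38 and 1.42 times as high as Sqle. Dhcr7 (ENSMUSG00000058454.15, chromosome 7, 143823145 to 143848410, plus strand), the reductase that ends one branch of the pathway by making cholesterol, was the lowest of the 8 at 14.9 and 13.3 TPM (14.1 ± 1.15). It held 810 and 838 counts, and 49.3% of detected protein-coding genes ranked below it. Along these 5 enzymes the RSEM-layout level went down step by step in both libraries, from Hmgcs1 to Fdps, Fdft1, Sqle and Dhcr7, and Hmgcs1 was 5.20 and 5.74 times Dhcr7.

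The genes of sterol sensing were unequal. Srebf2 (ENSMUSG00000022463.8, chromosome 15, 82147181 to 82205379, plus strand), which encodes the SREBP-2 precursor, was at 70.5 and 71.1 TPM (70.8 ± 0.431) from 7663 and 8106 counts, the largest counts of the 8 genes. Insig1 (ENSMUSG00000045294.11, chromosome 5, 28071363 to 28078662, plus strand), which encodes the retention protein and is itself known as an SREBP target, was at 25.2 and 25.5 TPM (25.4 ± 0.184) from 1604 and 1721 counts. Srebf2 ranked above 90.2% of detected protein-coding genes and Insig1 above 68.5%. These are mRNA levels, and cleavage of the precursor protein was not measured.

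Cyp46a1 (ENSMUSG00000021259.5, chromosome 12, 108334381 to 108362234, plus strand) was among the 3 highest of the set, although it acts against the direction of the synthesis enzymes. It was at 70.7 and 68.3 TPM (69.5 ± 1.70) from 3449 and 3576 counts, above 90.1% of detected protein-coding genes. Its level was 3.49 and 3.48 times that of Sqle and 0.912 and 0.896 times that of Hmgcs1. In bulk tissue such as this, fewer cells of a type and less RNA per cell cannot be told apart, so a level is an average over all cells of the dissected piece.

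In order of mean level the 8 genes ran Hmgcs1, Srebf2, Cyp46a1, Fdps, Fdft1, Insig1, Sqle and Dhcr7. The values of Srebf2 and Cyp46a1 overlapped between the libraries, so that pair did not differ beyond its spread. All other neighbours were separate in both libraries, with the widest step between Cyp46a1 and Fdps, where the ratio of means was 2.07. The kallisto layout, a second quantification of the same reads, gave the same upper 4 genes in the same order. There Hmgcs1 was at 124 and 131 TPM and Srebf2 at 117 and 126 TPM, which overlapped, and Cyp46a1 was at 111 and 112 TPM. Lower down, Insig1 at 42.7 and 44.2 TPM overlapped Fdft1 at 43.0 and 42.1 TPM, and Sqle at 30.0 and 30.5 TPM overlapped Dhcr7 at 31.8 and 28.6 TPM. The downward steps from Fdft1 to Insig1 and from Sqle to Dhcr7 are therefore seen in the RSEM layout alone.

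**Figure D1:**
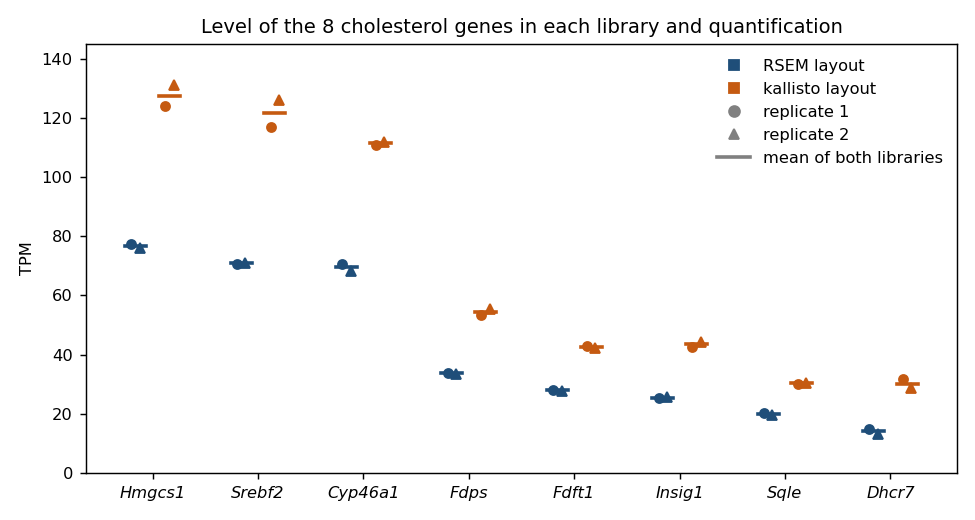
Level of the 8 cholesterol genes in TPM (linear axis), in the order of their mean in the RSEM layout. Circles are replicate 1, triangles replicate 2 and bars the mean of both; the upper group of Hmgcs1, Srebf2 and Cyp46a1 stands apart from the other 5 genes in both quantifications, and Dhcr7 at 14.1 TPM in the RSEM layout is level with Sqle in the kallisto layout.

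Levels in the kallisto layout were higher throughout. The ratio of the kallisto to the RSEM level had a median of 1.67 over detected protein-coding genes. Among the 8 genes it was 1.52 for Sqle and for Fdft1, 1.61 for Cyp46a1, 1.62 for Fdps, 1.66 for Hmgcs1, 1.71 for Insig1 and 1.72 for Srebf2. Dhcr7 stood apart from these at 2.15, and its rank among detected protein-coding genes was 6456 by RSEM-layout TPM and 5515 by kallisto-layout TPM. The transcripts of Dhcr7, given further on, also differed most between the quantifications in the share that carries the main coding sequence.

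All 21 enzymes of the mevalonate, isoprenoid, squalene and sterol lists were detected, from 5.17 to 76.8 TPM. Of the 5 synthesis enzymes described here, Hmgcs1, Fdps, Fdft1 and Sqle lay above the median of these 21, which was 16.4 and 14.8 TPM, and Dhcr7 lay below it in both libraries. By kallisto-layout TPM, a comparison added after seeing the data, the median was 25.0 and 24.0, and all 5, Dhcr7 included, lay above it. Hmgcs1 was the highest of the 21. Msmo1, a sterol methyl oxidase, was at 36.3 and 35.5 TPM, above Fdps. In the RSEM layout the lowest enzymes of each list were Mvd, the mevalonate diphosphate decarboxylase, at 7.47 and 6.82 TPM, and Lbr, a sterol reductase that also anchors chromatin at the nuclear lamina, at 5.53 and 4.80 TPM. Lbr was not the lowest in the kallisto layout, where it was at 14.6 and 17.7 TPM and the sterol reductase gene Hsd17b7, named after its values were seen, was at 13.0 and 10.6 TPM.

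**Figure D2:**
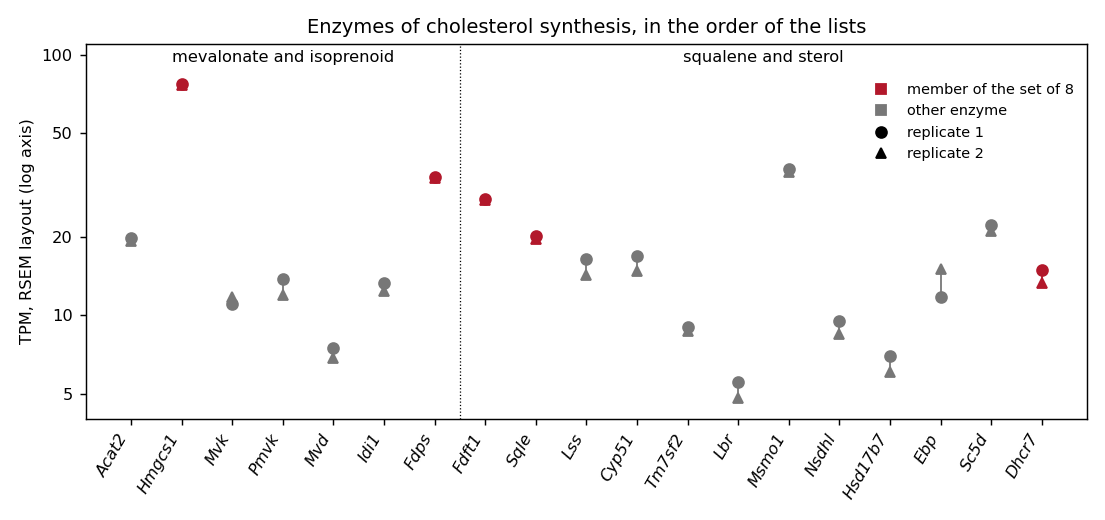
TPM (log axis, RSEM layout) of enzymes of cholesterol synthesis in the order of the lists, with replicate 1 as circles and replicate 2 as triangles. The members, in red, go down from Hmgcs1 at 77.5 and 76.2 TPM to Dhcr7 at 14.9 and 13.3 TPM, while the other enzymes, in grey, do not follow one slope and reach down to Lbr at 5.53 and 4.80 TPM.

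Srebf2 led the SREBP control list, of which all 10 genes were detected. It was 2.36 and 2.43 times Srebf1, the related gene whose products favour fatty acid synthesis, which was at 29.8 and 29.2 TPM. The kallisto layout gave 2.06 and 2.73 for the same ratio, so its size was less certain than the RSEM values alone show. Scap, the escort of SREBP-2, was at 43.3 and 35.8 TPM, below Srebf2 in both libraries. Rnf139, a ubiquitin ligase of the endoplasmic reticulum, was the lowest at 7.97 TPM in both. Insig1 was somewhat below its paralogue Insig2, at 29.8 and 27.7 TPM, with a ratio of 0.847 and 0.921, and 0.800 and 0.816 in the kallisto layout.

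Cyp46a1 was the highest gene of the turnover, oxysterol and esterification list by a wide margin. Of these 8 genes 5 were detected. Soat1, which esterifies cholesterol inside cells, was at 19.8 and 19.9 TPM, and Lcat, which esterifies it on lipoproteins, at 15.5 and 17.3 TPM. Other sterol hydroxylases lay lower still. Cyp7b1, an oxysterol hydroxylase named after its values were seen, was at 11.8 and 11.7 TPM, so that Cyp46a1 was 5.96 and 5.85 times as high. Cyp27a1, a mitochondrial sterol hydroxylase also named after its values were seen, was at 1.92 and 1.93 TPM, and Cyp46a1 was 36.8 and 35.4 times as high. Ch25h, a hydroxylase known from activated immune cells, held 3 and 11 counts, and Soat2, the esterifying enzyme of gut and liver, held 2 and 5.

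Genes of cholesterol uptake, transport and efflux gave 13 detected of 14. Lrp1, a lipoprotein receptor with many ligands, was at 115 and 114 TPM, above each of the 8 genes. Lrp8, the apolipoprotein E receptor known for reelin signalling, was at 39.6 and 35.9 TPM, and Abcg1, a sterol exporter, at 33.9 and 26.6 TPM.

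The 8 genes differed little between the libraries. After TMM scaling of counts, 0 of the 8 were over 1.2-fold apart, beside 10.1% of the 14307 genes whose counts averaged 50 or more. At 2-fold the count was 0 of 8, beside 0.384% of genes. With only 8 genes, a count of 0 is close to either share. The shares are also not matched for depth. The 14307 genes reach down to a mean count of 50, while each of the 8 held 810 counts or more. The widest ratio of the 8 was that of Insig1, 1.048-fold higher in replicate 2, with an exact 95% counting interval of 0.978 to 1.122. Hmgcs1 followed at 1.040 (1.004 to 1.077), then Fdps at 1.036 (0.949 to 1.132) and Srebf2 at 1.033 (1.001 to 1.066). Fdft1 was at 1.016, Sqle at 1.015, Cyp46a1 at 1.012 and Dhcr7 at 1.010, all with intervals that include equality. The intervals of Hmgcs1 and Srebf2, the genes with the most counts of the 8, lay just above equality under TMM scaling. The intervals cover counting error only, and not the spread between animals. They take each rounded expected count as a number of independent reads. The reads carry no molecular identifiers, so copies of one molecule were not told apart, and the intervals may be too narrow.

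By scaled counts all 8 genes were higher in replicate 2, where 50.1% of all genes were, but by TPM as deposited 2 were higher and 6 lower. The median log2 ratio of scaled counts over the 8 genes was 0.035, with a range of 0.015 to 0.067, beside 0.000 over all genes. Each of the 8 ratios was below the median absolute log2 ratio of all genes, 0.070. That median reaches down to genes with a mean count of 50, so it too is not matched for depth. The direction was the same with DESeq2 size factors, gene totals, ERCC totals, kallisto-layout counts and posterior mean counts. By TPM the median over the 8 genes was -0.019 on the log2 scale, beside -0.060 over all genes, of which 31.5% were higher in replicate 2. TPM sums to a fixed total, so a gene's TPM also depends on all other RNAs in the library. When TPM was rescaled to protein-coding genes alone, Hmgcs1 was at 174 and 177 TPM and Srebf2 at 158 and 166 TPM. Dhcr7 alone of the 8 genes stayed lower in replicate 2, at 33.4 and 30.9 TPM.

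The other genes of the pathway did not lean the same way. Of the 45 genes in the lists that are not among the 8, 41 had a mean count of at least 50, of which 17 were higher in replicate 2 and 24 lower, with a median log2 ratio of -0.021. The 16 other synthesis enzymes had 6 higher and 10 lower, with a median of -0.027 and a range of -0.192 to 0.204. In the turnover list all 5 counted genes, Cyp46a1 included, were higher, with a median of 0.052. The SREBP control list, with Srebf2 and Insig1, had 6 higher and 4 lower, also with a median of 0.052. The uptake, transport and efflux list had 3 higher and 10 lower, with a median of -0.026. The turnover and SREBP control lists share genes with the 8, so their medians are not independent of them. The counted turnover genes outside the 8 were also higher in replicate 2. Their log2 ratios were 0.040 for Cyp7b1, 0.349 for Cyp27a1, 0.052 for Soat1 and 0.219 for Lcat. A lean towards replicate 2 was therefore seen in the 8 genes and in the turnover list, but not across the 41 other pathway genes. Of the 49 pathway genes with enough counts, 2 were over 1.2-fold apart and none over 1.5-fold. These were Cyp27a1, with 54 and 71 counts and a log2 ratio of 0.349, and the sterol-sensing nuclear receptor gene Nr1h3, with 78 and 56 counts and a log2 ratio of -0.497. Both are at the low end of the counted genes, and both were named for this difference after their values were seen.

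Some lists of cell type markers differed more between the libraries than the cholesterol genes did, and others did not. Markers of the hippocampal fields were detected for 7 of 7 genes and summed to 363 and 347 TPM. Oligodendrocyte markers, of cells that make cholesterol for myelin, were lower in replicate 2 for 10 of 10 genes, with a median log2 ratio of -0.318, 7 of them over 1.2-fold. They summed to 1263 and 922 TPM, and none was at 0. Meningeal fibroblast markers were higher for 8 of 8 genes, with a median of 1.050 and sums of 58.1 and 96.4 TPM. The 3 counted markers of the choroid plexus were lower, with a median of -1.148. Excitatory neuron markers, from cells that express Cyp46a1, had a median of -0.012 and sums of 2621 and 2460 TPM, and astrocyte markers a median of 0.036 and sums of 1575 and 1538 TPM. By the same scaled counts the log2 ratios of the 8 cholesterol genes ran from 0.015 to 0.067, and by TPM 6 of the 8 were lower in replicate 2. The part of these cell types in the levels of the 8 genes was not tested.

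**Figure D3:**
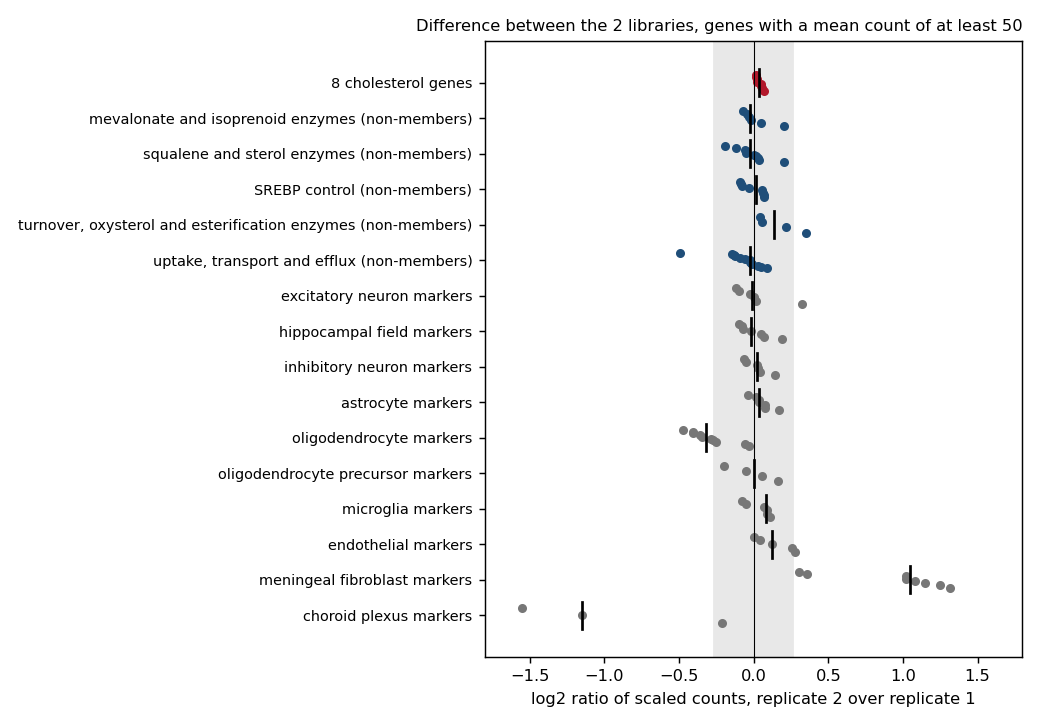
Log2 ratio of scaled counts, replicate 2 over replicate 1, for each gene whose counts averaged 50 or more; points are genes, black bars list medians and the grey band marks 1.2-fold. The 8 cholesterol genes, in red, lie between 0.015 and 0.067, and the other pathway genes, in blue, scatter around 0. The markers, in grey, reach medians of -1.148 for the choroid plexus and 1.050 for meningeal fibroblasts, with -0.318 for oligodendrocytes.

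Each of the 8 genes had the same leading transcript in both libraries, in either quantification. The leading transcript is the one that took most of its gene's TPM, averaged over the libraries. The 2 quantifications named the same transcript for 6 of the 8 genes. For all 8, the transcripts named by each share their coding exons, so the choice did not alter the protein encoded.

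Hmgcs1 and Fdps were the genes for which the quantifications differed. In the RSEM layout Hmgcs1-202 took 73.1 ± 0.952% of Hmgcs1 and Hmgcs1-201 took 21.6%, whereas in the kallisto layout Hmgcs1-201 took 79.8 ± 0.328% and Hmgcs1-202 12.7%. The pair differs in noncoding parts: Hmgcs1-202 has an added exon of 59 bases at 119694989 to 119695047 on chromosome 13, an initial exon of 50 bases in place of 68, and a final exon of 1872 bases in place of 1694. For Fdps, Fdps-201 took 95.2 ± 0.198% in the RSEM layout but 25.9 ± 7.86% in the kallisto layout, where Fdps-203 took 69.9 ± 6.09%. Fdps-203 has an added noncoding exon of 216 bases at 89100921 to 89101136 on chromosome 3, and an initial exon of 27 bases in place of 98. Within each layout both libraries gave the same order, so the difference between layouts was larger than that between libraries.

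The share of TPM in transcripts that carry the main coding sequence was steadier. It was 94.8 ± 1.01% for Hmgcs1 and 95.3 ± 0.0928% for Fdps in the RSEM layout, and 92.5% and 95.9% in the kallisto layout. Sqle had 98.2 ± 0.492%, almost all of it in Sqle-201, and Insig1 had 94.1 ± 0.571%, with 5.87% in a retained-intron transcript. Cyp46a1 had 91.1 ± 0.412%. Its transcript Cyp46a1-202, annotated as a target of nonsense-mediated decay, the removal of mRNAs with an early stop, took 7.12 ± 0.0423%, and 8.33 ± 0.146% in the kallisto layout. This minor transcript thus took a like share of the gene in both libraries and both quantifications.

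Srebf2 had the largest share of retained-intron transcripts among the 8 genes in the RSEM layout, at 13.6 ± 0.0854%. Srebf2-205 made up most of it, at 11.9%, and 8.72% by kallisto-layout TPM. The kallisto layout gave Srebf2 a retained-intron share of 10.6%, below Fdft1 at 15.0% and Dhcr7 at 11.6%. Srebf2-201, which carries the main coding sequence, took 77.8 ± 0.889%, and 67.8 ± 3.39% in the kallisto layout. The short coding model Srebf2-202 took 7.63% and 19.5%. Total RNA also holds unspliced precursors, and intronic reads from these cannot be told apart from retained introns in such tables.

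Fdft1 was divided among its transcripts differently by each quantification. In the RSEM layout Fdft1-201 took 75.0 ± 0.354% and the decay-annotated Fdft1-202 14.3 ± 0.123%. The kallisto layout gave 45.0 ± 2.84% and 3.28 ± 1.53%, with 36.7% in Fdft1-204, which has the same coding exons as Fdft1-201, and 15.0% in the retained-intron model Fdft1-203. The share with the main coding sequence nevertheless came to 82.8% and 81.7%. Fdft1 overlaps Ctsb, a lysosomal protease gene on the other strand, by 774 bases where the ends of both genes meet, and Ctsb held 10514 and 10898 counts. Since the strand setting of the counting is unknown, reads in that stretch may have been assigned to either gene.

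Dhcr7 has 13 annotated transcripts, and their shares differed between libraries and between quantifications. Dhcr7-202 took 69.3% in replicate 1 and 83.5% in replicate 2 in the RSEM layout, but 51.4% and 52.7% in the kallisto layout. The short coding model Dhcr7-208, of 850 bases, took 10.7% and 5.95%, and 22.8% and 17.6% in the kallisto layout. The share with the main coding sequence was 84.8 ± 7.38% by RSEM-layout TPM and 63.1 ± 6.20% by kallisto-layout TPM, the widest gap among the 8 genes. Dhcr7 also had the lowest log2 ratio by TPM, -0.167, while its counts of 810 and 838 were 1.010-fold higher in replicate 2 after scaling. TPM divides by an effective length that depends on the mix of transcripts, and the mix of Dhcr7 differed between the libraries, but the part of that mix in the lower TPM was not tested.

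**Figure D4:**
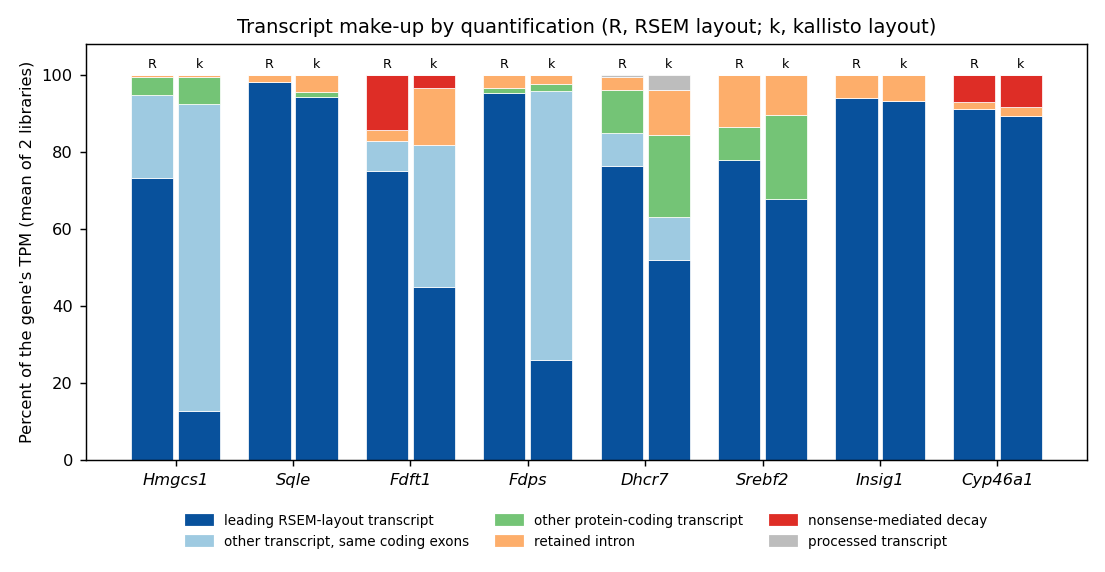
Percent of each gene's TPM by class of transcript, as the mean of 2 libraries, in the RSEM layout (R) and the kallisto layout (k). Dark and light blue together are transcripts with the main coding sequence; they come to 94.8% and 92.5% for Hmgcs1 although its leading transcript differs, and to 84.8% and 63.1% for Dhcr7.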

How the data were processed

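Total RNA of 2 hippocampus libraries was analysed from deposited tables. Per the file headers, the gene and transcript tables have the RSEM layout: an expected count (an estimated number of reads), a posterior mean count, TPM, FPKM and, for transcripts, the percent of the gene's abundance. A second deposited transcript table, in the kallisto layout, holds an estimated count and TPM, summed here over each gene's transcripts. Deposited notes name the mm10 build with the GENCODE M21 annotation. Neither the aligner nor any program version or strand setting is given in the sources used here. Hybrid mice gave reads that were assigned on the mm10 reference, and the effect of the CAST/EiJ alleles was not tested.

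Expected counts were rounded, which gave 35358099 and 36307276 gene counts; ERCC rows (175174 and 178579 counts) and 26249 rows naming no gene (7.82e-06% and 1.64e-05% of counts) were left out. Libraries were scaled by TMM after filterByExpr (17697 genes) in edgeR 4.0.16 under R 4.3.3, and log2 ratios used a prior count of 2. Folds carry exact binomial 95% intervals. A gene was counted as apart at 1.2-fold or 2-fold where its counts averaged 50 or more. The ratio procedure was tested on simulated data. Alternatives included DESeq2 1.42.0 size factors, other scalings, minimums and units, the kallisto layout and each library alone.

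Promoter windows and microRNA sequences are RefSeq's, and 3′ UTRs were read from GENCODE M21 models. All 8 genes are described. From each pathway list the rule for names took the 3 highest genes, the lowest, any over 1.5-fold apart, and counterparts of the 8 genes such as Srebf1, Insig2 and Ch25h. Some genes that the rule takes are not reported here. Of the marker lists only list values are given. The genes and lists were chosen with earlier results of these data known. Python 3.11.15, pandas 2.3.3, numpy 2.4.6, scipy 1.17.1 and matplotlib 3.10.9 were used.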

Additional observations from a re-analysis of the deposited data

How the results depend on the processing

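The counts of detected genes, of genes apart and of matching leading transcripts stayed within 1.5 times of their value under the alternatives run. All 8 genes were detected at TPM minimums of 0.1 and 10, in the kallisto layout and in each library alone, and 0 of 8 were apart at 1.1-fold, a threshold chosen after seeing the data, as was the share of the main coding sequence in the kallisto layout. The median log2 ratio of the 8 genes, 0.035, was 0.031 to 0.044 under other count scalings and -0.019 by TPM, where the median of all genes was also lower. Matching leading transcripts were 5 rather than 6 by shares of counts. Pathway genes detected were 37 at a TPM minimum of 10 and 50 at 0.1. By kallisto-layout TPM the level of each of the 8 genes moved by more than 1 SD. No paired analysis was possible because there is a single group, and with 1 library left out no ratio remains. Ratios of genes under 100 counts, such as Cyp27a1 (0.889 to 1.864), are limited by depth.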

Other observations

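Srebf2 overlaps Gm49502, a gene model on the same strand that awaits experimental evidence, which held 80 counts in replicate 1 and 55 in replicate 2. Its reads cannot be separated from intronic reads of Srebf2. Fdps overlaps the coding model Gm43738 on its own strand, which was listed at 0 counts in both libraries in the RSEM layout and at 5.85 and 6.08 estimated counts in the kallisto layout. Hmgcs1 overlaps the antisense gene Gm48342, which held 1 count in each library, against 6210 and 6614 for Hmgcs1.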
